A study of Mus musculus with 16 samples.

Results

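The genes described here are 9 homeostatic chemokines and chemokine receptors: Cxcl12, Cxcl13, Cxcl14, Ccl19, Ccl21a and Cx3cl1 as ligands, and Cxcr4, Ackr3 and Cx3cr1 as receptors. They were picked by name, not by their values, and are 9 of the 55359 genes in the count table. They were read in RNA sequencing of periodontal ligament, the connective tissue that holds a tooth root in its socket, from wild-type (WT) C57BL/6J male mice aged 9 weeks. The 16 libraries form 4 groups of 4. Ligature plus trauma mice carried both a silk ligature around the left upper second molar, which brings on periodontitis, and composite resin on the biting surface of that tooth, which overloads it. Ligature mice carried the thread alone, trauma mice the resin alone, and control mice neither. The labels do not give the time between treatment and sampling, nor whether a library came from 1 mouse, so p-values measure the spread between libraries, which may be partly technical. The labels call the tissue periodontal ligament while the series title speaks of bone, and both kinds of marker were present: Postn, a matrix protein of the ligament, ranged from 6008 to 31406 CPM, and the summed osteoblast markers from 11601 to 27324 CPM.

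Homeostatic chemokines are made at steady levels by stromal, endothelial and epithelial cells and set where leukocytes and progenitor cells reside. CXCL12 holds haematopoietic cells and neutrophils in marrow through CXCR4, while ACKR3 takes the ligand up without the usual G protein signal. CCL19 and CCL21 guide dendritic cells and T cells that carry CCR7 into lymphatic vessels and lymph nodes, CXCL13 draws B cells that carry CXCR5 into follicles, and CX3CL1 is the membrane-bound ligand of CX3CR1 on monocytes and macrophages.

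Library totals lay between 58458102 and 77468584 counts. All 9 genes passed the filter on low counts and were among the 20953 genes tested. CPM relate each count to the scaled library total, log2 fold changes come with their standard error (SE), and a gene was called when its adjusted p in edgeR's quasi-likelihood test was under 0.05. Ligature 2 and ligature plus trauma 2 and 3 stood apart from the rest. Gene level relative to the gene's mean over the 16 libraries was set against transcript length. The rank correlations were -0.428, -0.342 and -0.361 there, and -0.171 to 0.319 elsewhere.

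With the ligature alone, Cxcr4 rose, and Cxcl12 and Ccl21a fell. Of the 9 genes 1 was called higher and 2 lower in ligature against control, where 5.88% of all genes tested were called higher and 4.78% lower. Against control, ligature plus trauma had Cxcr4 and Ackr3 called higher and Cxcl12 and Ccl21a called lower, against 6.83% and 5.62% of all genes. In ligature plus trauma against trauma, which shares no library with ligature against control, Cxcr4 and Cxcl14 were called higher and Ccl21a lower, against 2.21% and 3.27% of all genes. The median log2 fold change of the 9 genes was -0.71 in ligature against control, where that of all genes was -0.05, and -0.14 in ligature plus trauma against trauma, where that of all genes was -0.02.

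**Figure D1:**
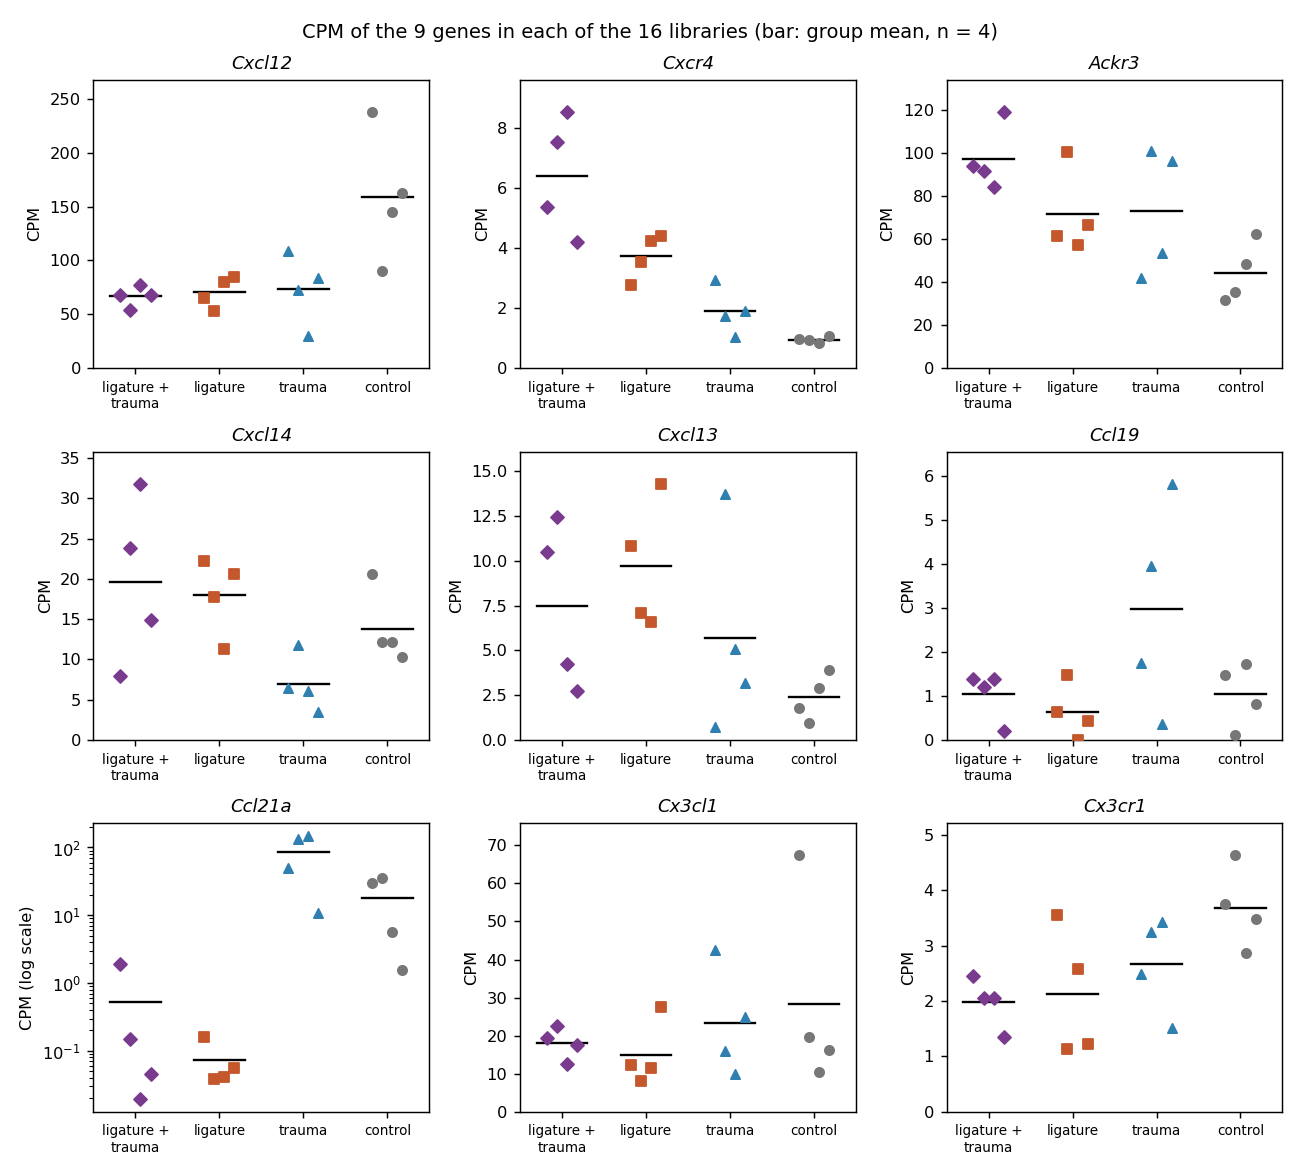
CPM of each of the 9 genes in each library, by group, with the group mean as a bar (n = 4 each; linear axes from 0, except a log axis for Ccl21a). Cxcr4 stood at 2.76 CPM or more in all 8 ligated libraries and at 1.07 CPM or less in control, and Ccl21a at 1.89 CPM or less in the ligated libraries and at 10.97 CPM or more in trauma.

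The windows of 250 bases before the annotated start of the 4 genes that the main results turn on are shown here, since these genes moved in different directions. The sequences are RefSeq's on GRCm38.p6, read 5′ to 3′ on the gene's own strand, and capitals mark matches on either strand to GGGCGG (the GC box) or TATAAA (the TATA box).
Cxcl12 (chr6:117168285-117168534, + strand): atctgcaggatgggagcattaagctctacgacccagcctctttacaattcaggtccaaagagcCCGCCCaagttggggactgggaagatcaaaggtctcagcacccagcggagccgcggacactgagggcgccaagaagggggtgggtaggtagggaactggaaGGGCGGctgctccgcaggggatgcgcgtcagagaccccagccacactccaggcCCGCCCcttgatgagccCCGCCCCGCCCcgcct
Cxcr4 (chr1:128592300-128592549, - strand): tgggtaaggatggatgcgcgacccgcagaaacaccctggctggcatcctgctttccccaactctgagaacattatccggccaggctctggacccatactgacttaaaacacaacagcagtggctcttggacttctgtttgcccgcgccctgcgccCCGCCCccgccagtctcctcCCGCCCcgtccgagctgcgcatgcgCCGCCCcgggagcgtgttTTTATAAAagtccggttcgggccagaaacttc
Ackr3 (chr1:90203730-90203979, + strand): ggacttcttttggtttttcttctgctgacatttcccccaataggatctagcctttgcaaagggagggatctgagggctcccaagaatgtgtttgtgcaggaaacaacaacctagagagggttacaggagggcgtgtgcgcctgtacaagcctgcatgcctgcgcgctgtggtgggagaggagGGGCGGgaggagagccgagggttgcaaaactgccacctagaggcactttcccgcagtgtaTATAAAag
Ccl21a (chr4:42773992-42774241, - strand): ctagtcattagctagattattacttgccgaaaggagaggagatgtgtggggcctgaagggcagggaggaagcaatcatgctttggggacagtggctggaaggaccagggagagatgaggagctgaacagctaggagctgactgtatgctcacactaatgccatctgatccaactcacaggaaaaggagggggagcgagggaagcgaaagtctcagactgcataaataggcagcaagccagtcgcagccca
The GC box stood 5 times in the Cxcl12 window, with 2 of the matches overlapping by 1 base, 3 times in that of Cxcr4 and 1 time each in those of Ackr3 and Cx3cl1. It was found in 32.7% of the 32851 promoter windows of the same length. TATAAA, found in 12.4% of all windows, was in those of Cxcr4, where a forward and a reverse match overlap, and Ackr3, and also in those of Cxcl13 and Cx3cl1. Neither motif was in the window of Ccl21a, Ccl19, Cxcl14 or Cx3cr1. Neither an NF-kB motif (GGGANNTTCC, in 1.21% of all windows) nor the core of the hypoxia response element (ACGTG, in 16.6%) was in any of the 9 windows.

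Cxcl12, the ligand of both CXCR4 and ACKR3, was highest in control. In libraries 1 to 4 it had 68.3, 53.9, 77.3 and 67.9 CPM in ligature plus trauma. It had 65.3, 53.1, 80.4 and 84.7 CPM in ligature and 108, 72.2, 29.5 and 84.0 CPM in trauma, against 238, 89.9, 145 and 162 CPM in control. Both ligated groups lay wholly below control, whereas trauma 1 stood above control 2. The log2 fold change against control was -1.25 ± 0.34 in ligature plus trauma (SE; edgeR adjusted p = 0.0274) and -1.16 ± 0.34 in ligature (adjusted p = 0.0381). In trauma it was -1.11 ± 0.34, a like size, but was not called among all genes (adjusted p = 0.559, unadjusted p = 0.00460). Where trauma was present already, Cxcl12 did not differ detectably with the ligature: the log2 fold change of ligature plus trauma against trauma was -0.14 ± 0.33, with a 95% interval of -0.84 to 0.57. The difference between the ligature's effects with and without trauma (the interaction) was 1.03 ± 0.47 in log2, which did not pass the correction (adjusted p = 0.9999, unadjusted p = 0.0454). In bulk tissue, fewer cells of a type and less RNA per cell cannot be told apart.

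Both Cxcl12 calls were close to the threshold. That of ligature against control was lost with any 1 library left out other than control 2 (adjusted p up to 0.125), and that of ligature plus trauma against control without control 1, control 4 or ligature plus trauma 2 or 3 (up to 0.0932). With each library's trend on transcript length removed, the log2 fold changes shrank to -0.50 in ligature against control (adjusted p = 0.336) and -0.42 in ligature plus trauma against control (adjusted p = 0.416). Without the 3 libraries shifted to short transcripts they were -1.07 (adjusted p = 0.108) and -1.23 (adjusted p = 0.156). Over the 16 libraries, which share these length differences, log2 CPM of Cxcl12 had a Pearson r of 0.626 with the library's length correlation and of 0.648 with the summed osteoblast markers, of which 5 of 9 were called lower in ligature against control. The osteoblast sum was 11601 to 17006 CPM in ligature plus trauma, 14325 to 17117 CPM in ligature, 14666 to 21990 CPM in trauma and 18331 to 27324 CPM in control. Col1a1, its largest part in control (mean 11845 CPM), is also a ligament fibroblast marker. Ibsp, another of the 9, had means of 7846 CPM in ligature and 5964 CPM in control. Medians of the summed ligament fibroblast markers were 49352 CPM in ligature and 93146 CPM in control, with ranges that overlapped. The part of these measures in the Cxcl12 result was not tested. The genes most alike to Cxcl12 over the 16 libraries, of 11110 genes with a mean log2 CPM of at least 2, were Mrc2 (a collagen-binding receptor, r = 0.903), Cyp1b1 (a cytochrome P450, r = 0.897) and Magee1 (r = 0.895).

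Cxcr4, the signalling receptor of CXCL12 on neutrophils, lymphocytes and many progenitor cells, rose in both ligated groups. It had 5.37, 7.53, 8.54 and 4.21 CPM in ligature plus trauma and 2.76, 3.55, 4.25 and 4.39 CPM in ligature. In trauma it had 2.93, 1.73, 1.03 and 1.91 CPM, against 0.979, 0.926, 0.836 and 1.07 CPM in control. Every ligated library was above every control library, and every ligature plus trauma library above every trauma library. The log2 fold change was 2.75 ± 0.36 in ligature plus trauma against control (adjusted p = 0.000658), 1.97 ± 0.35 in ligature against control (adjusted p = 0.00278) and 1.75 ± 0.35 in ligature plus trauma against trauma (adjusted p = 0.00972). Each of these calls held with any 1 library of the compared groups left out. Without the 3 libraries rich in muscle RNA (control 3, ligature 2 and ligature 3), ligature against control gave 1.83 and was not called (adjusted p = 0.0555). Without the 3 libraries shifted to short transcripts, the log2 fold change of ligature plus trauma against trauma was 1.33 and was not called (adjusted p = 0.124). In trauma against control the log2 fold change was 0.996 ± 0.346 and was not called (adjusted p = 0.664, unadjusted p = 0.0108), and trauma 3 lay within the control range. Ligature plus trauma against ligature gave 0.78 ± 0.34 (adjusted p = 1, unadjusted p = 0.0367), with ranges that overlapped.

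The only marker sums set beside Cxcr4 were those of neutrophils, of monocytes and macrophages, and of vascular endothelium. The 8 neutrophil markers summed to 671 to 3798 CPM in ligature plus trauma, 629 to 1505 CPM in ligature, 599 to 4719 CPM in trauma and 205 to 724 CPM in control, with 4 of 8 called higher in ligature against control. Their median sum was highest in trauma, at 3112 CPM against 965 CPM in ligature. S100a8 and S100a9 were its largest parts, with means of 1472 and 1304 CPM in trauma and 440 and 418 CPM in ligature. Clec4d (45.4 against 14.0 CPM), Mmp8, Retnlg, Csf3r and Cxcr2 had higher means in ligature than in trauma. Ly6g had a lower one (0.466 against 0.633 CPM). Cxcr4 had means of 1.90 CPM in trauma and 3.74 CPM in ligature. The 13 monocyte and macrophage markers summed to 888 to 1024 CPM in ligature plus trauma, 886 to 1307 CPM in ligature, 498 to 1030 CPM in trauma and 485 to 846 CPM in control, with 4 called higher and 3 lower in ligature against control. The 10 vascular endothelial markers, of which 8 were called higher in ligature against control, summed to 941 to 1547 CPM in ligature plus trauma, 1024 to 1836 CPM in ligature, 251 to 556 CPM in trauma and 268 to 454 CPM in control. Over the 16 libraries log2 CPM of Cxcr4 had an r of 0.797 with the endothelial sum, 0.575 with the monocyte sum and 0.421 with the neutrophil sum; these libraries share the ligature that separates them, and the part of the cell types in the result was not tested. The genes most alike to Cxcr4 were Ccl3 (a chemokine of activated myeloid cells, r = 0.937), Clec4e (the myeloid lectin receptor Mincle, r = 0.934) and Cd14 (the lipopolysaccharide co-receptor, r = 0.926).

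Ackr3, the atypical receptor that clears CXCL12, was highest with both treatments. It had 94.1, 91.5, 84.1 and 119 CPM in ligature plus trauma and 61.3, 100, 57.4 and 66.4 CPM in ligature. In trauma it had 42.0, 101, 53.5 and 96.3 CPM, against 31.6, 35.3, 48.3 and 62.4 CPM in control. Ligature plus trauma lay wholly above control, and both other groups overlapped control. Against control, ligature plus trauma gave a log2 fold change of 1.13 ± 0.30 (adjusted p = 0.0243). It was 0.68 ± 0.30 in ligature against control (adjusted p = 0.149) and 0.72 ± 0.30 in trauma against control (adjusted p = 0.687), neither of them called. Ligature plus trauma against ligature (0.45 ± 0.30) and against trauma (0.41 ± 0.30) were not called either, so that the combined treatment was not shown to differ from either treatment alone. The call was lost without control 1, control 2 or ligature plus trauma 2 (adjusted p up to 0.0776), and without the 3 short-transcript libraries the value was 1.26 (adjusted p = 0.0619). Among the genes most alike to Ackr3 were Casp4 (the inflammatory caspase 11, r = 0.880) and Cebpd (an acute-phase transcription factor, r = 0.869).

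Per kilobase of the longest coding transcript, the order of these 3 genes in control was Cxcl12 at 28.2 ± 10.9, Ackr3 at 14.5 ± 4.56 and Cxcr4 at 0.528 ± 0.0536 CPM per kb (SD, n = 4). With both treatments (ligature plus trauma) Ackr3 stood first at 31.7 ± 4.97 CPM per kb, followed by Cxcl12 at 11.9 ± 1.72 and Cxcr4 at 3.55 ± 1.10 CPM per kb. In ligature Ackr3 had 23.3 ± 6.44 and Cxcl12 12.6 ± 2.57 CPM per kb, and in trauma Ackr3 had 23.9 ± 9.73 and Cxcl12 13.1 ± 5.85 CPM per kb. Among the 9 genes in control, Ccl21a (20.7 ± 19.4 CPM per kb) could not be told apart from its neighbours Cxcl12 and Ackr3 at this spread, nor Cx3cl1 (8.57 ± 7.91) from Cxcl14 (7.55 ± 2.52) or Ccl19 (1.35 ± 0.936) from Cxcl13 (2.07 ± 1.12). Cx3cr1 (0.820 ± 0.163 CPM per kb) stood near Cxcr4 at the low end. The place of Cx3cl1 depends on the transcript chosen, since its longest coding transcript has 3315 bases and its median one 470, with which it would have 60.4 CPM per kb in control.

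**Figure D2:**
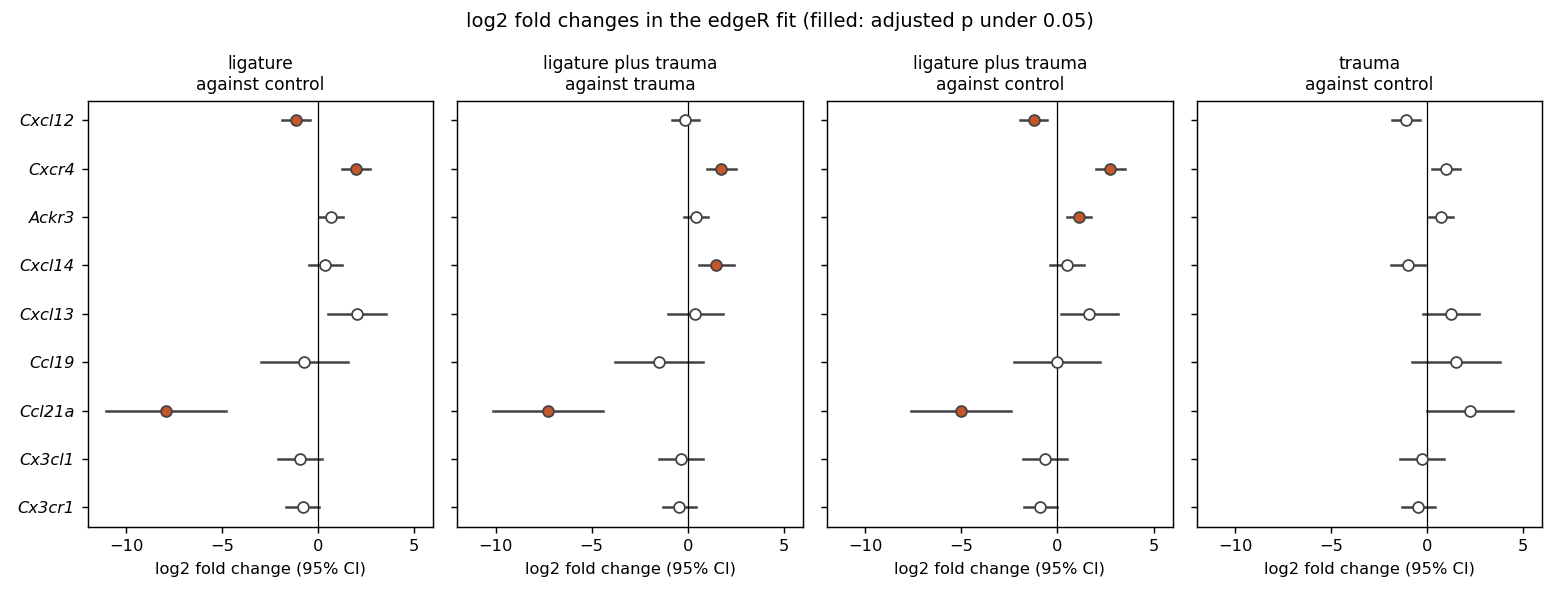
Log2 fold changes of the 9 genes in 4 comparisons of the edgeR fit, with 95% intervals; filled points had an adjusted p under 0.05. Cxcr4 is at 1.97 in ligature against control and 1.75 in ligature plus trauma against trauma, Ccl21a at -7.90 and -7.29, and no point is filled in trauma against control.

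Ccl21a, the lymphatic and lymph node ligand of CCR7, fell furthest of the 9 genes. It had 1.89, 0.149, 0.0197 and 0.0461 CPM in ligature plus trauma (137, 8, 1 and 3 counts) and 0.158, 0.0390, 0.0410 and 0.0552 CPM in ligature (10, 2, 3 and 4 counts). In trauma it had 49.9, 134, 146 and 10.97 CPM, against 29.7, 35.1, 5.62 and 1.55 CPM in control. Ligature lay wholly below control and ligature plus trauma wholly below trauma, but ligature plus trauma 1 stood above control 4. The log2 fold change was -7.90 ± 1.47 in ligature against control (adjusted p = 0.00342), -7.29 ± 1.35 in ligature plus trauma against trauma (adjusted p = 0.00699) and -5.04 ± 1.23 in ligature plus trauma against control (adjusted p = 0.0167). These sizes rest on a few counts in the ligated libraries and have wide 95% intervals, from -11.02 to -4.78 in ligature against control. The call in ligature plus trauma against control was lost without ligature plus trauma 2 (adjusted p = 0.0592) or 3 (adjusted p = 0.0518), and limma-voom with sample weights called none of the 3 (adjusted p = 0.156 to 0.245). Without the 3 muscle-rich libraries, ligature against control gave -7.73 and was not called (adjusted p = 0.0703). Without the 3 short-transcript libraries, Ccl21a was called in ligature against control alone of these comparisons, at -6.45 in ligature plus trauma against trauma (adjusted p = 0.0822) and -4.21 in ligature plus trauma against control (adjusted p = 0.156). In trauma against control the log2 fold change was 2.24 ± 1.06 and was not called (adjusted p = 0.721).

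Reads of Ccl21a may be split with near-identical genes. Of the stretches of 31 bases in each of Ccl21b, Gm10591, Gm13304 and Gm21541, 80.6% to 83.3% were also in Ccl21a. All 4 had counts of their own. Each was called lower in all 3 of these comparisons, at log2 fold changes of -4.54 to -4.99 in ligature against control and -6.08 to -6.39 in ligature plus trauma against trauma. The upstream windows of Gm13304 and Gm10591 were identical to that printed for Ccl21a at 247 of 249 aligned bases. That of Ccl21b, before its own annotated start, matched at 81 of 247. With the counts of Ccl21a and the 4 copies summed, the total was 3.92, 1.49, 0.355 and 1.83 CPM in ligature plus trauma and 0.914, 1.07, 1.21 and 0.939 CPM in ligature. It was 101, 301, 327 and 23.8 CPM in trauma, against 71.2, 86.0, 14.1 and 8.92 CPM in control, so that neither ligated group reached control or trauma. For the sum, the log2 fold change was -5.44 in ligature against control (adjusted p = 0.00216), -6.62 in ligature plus trauma against trauma (adjusted p = 0.00234) and -4.56 in ligature plus trauma against control (adjusted p = 0.00559).

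**Figure D3:**
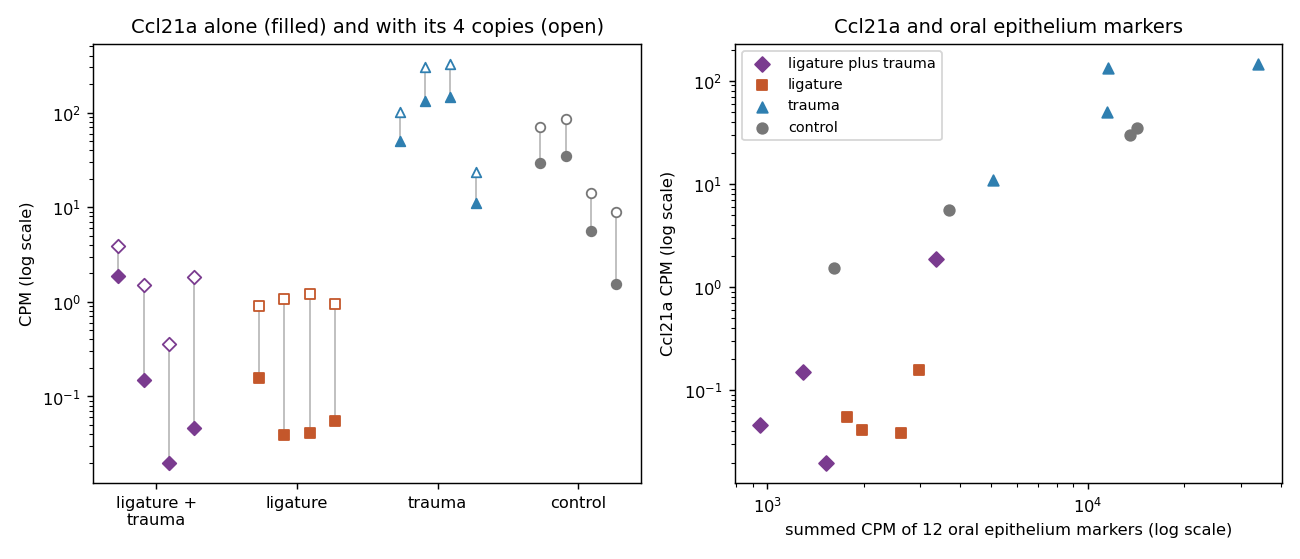
Left, CPM of Ccl21a alone (filled) and summed with its 4 near-identical copies (open) in each library, on a log axis; right, CPM of Ccl21a against the summed CPM of 12 oral epithelium markers, both on log axes (n = 16). The sum stays at 3.92 CPM or less in the ligated libraries and at 8.92 CPM or more in the others, and Ccl21a and the epithelial sum move together.

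Epithelial markers and the lymphatic gene Mmrn1 moved with Ccl21a, while the summed lymphatic markers overlapped between all groups. The 12 oral epithelium markers summed to 946 to 3363 CPM in ligature plus trauma, 1777 to 2975 CPM in ligature, 5053 to 33910 CPM in trauma and 1620 to 14268 CPM in control. Of them 6 were called lower in ligature against control and 8 in ligature plus trauma against trauma. Krt4, a keratin of the mucosal surface layers, was at 0 to 19.5 CPM in ligature plus trauma and 0.0687 to 2.06 CPM in ligature, against 63.1 to 3600 CPM in trauma and 10.2 to 2253 CPM in control. The basal keratin Krt14 was at 578 to 1912 CPM in ligature plus trauma and 1025 to 1822 CPM in ligature, against 3250 to 14682 CPM in trauma and 936 to 7388 CPM in control. Over the 16 libraries, log2 CPM of Ccl21a had an r of 0.905 with the epithelial sum, and the genes most alike to it were Nipal2 (r = 0.955), Krt13 (r = 0.947) and Krt4 (r = 0.945). The 4 ligature libraries had at most 0.158 CPM of Ccl21a, against 1.55 CPM in control 4, whose epithelial sum of 1620 CPM was below each of theirs. Control 4 had more Krt4 (10.2 CPM) and Krt13 (16.4 CPM) than any ligature library, which had at most 2.06 and 10.9 CPM. The 6 lymphatic endothelium markers other than Ccl21a summed to 45.9 to 57.1 CPM in ligature plus trauma, 38.1 to 63.7 CPM in ligature, 44.7 to 71.3 CPM in trauma and 46.6 to 53.6 CPM in control. Among them Mmrn1, a matrix protein of lymphatic endothelium and platelets, had no count in any of the 4 ligature libraries and 0 to 0.690 CPM in ligature plus trauma, against 1.87 to 25.4 CPM in trauma and 3.36 to 14.2 CPM in control. Prox1, the transcription factor of lymphatic identity, had 0.327 ± 0.312 CPM in ligature plus trauma, 0.610 ± 0.374 CPM in ligature, 0.796 ± 0.230 CPM in trauma and 1.28 ± 0.279 CPM in control (SD, n = 4) and was not called in ligature against control (adjusted p = 0.470). Lyve1, a receptor of lymphatic vessels and some macrophages, was called higher in ligature against control (log2 fold change 1.32 ± 0.40, adjusted p = 0.0459). Pdpn, the largest part of the lymphatic sum, had means of 40.7 CPM in ligature plus trauma and 40.5 CPM in ligature. Its means were 28.9 CPM in trauma and 28.5 CPM in control. Reln had means of 2.59 CPM in ligature plus trauma, 2.79 CPM in ligature, 5.24 CPM in trauma and 5.68 CPM in control. For Flt4 they were 2.91, 5.53, 2.13 and 3.78 CPM in the same order. The part of epithelium and of lymphatic vessels in the Ccl21a result was not tested.

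Ccl19, the other CCR7 ligand, was low throughout and was called in no comparison. It had 1.38, 1.21, 1.38 and 0.200 CPM in ligature plus trauma, 0.646, 1.48, 0 and 0.428 CPM in ligature and 1.75, 3.96, 0.374 and 5.83 CPM in trauma, against 1.49, 0.123, 1.74 and 0.829 CPM in control. All groups overlapped. The log2 fold change was -0.71 ± 1.07 in ligature against control (adjusted p = 0.718), -1.51 ± 1.08 in ligature plus trauma against trauma (adjusted p = 0.494) and 1.51 ± 1.08 in trauma against control (adjusted p = 0.792). Ccl19-ps3 is a pseudogene of whose stretches of 31 bases 90.5% were also in Ccl19. It was called lower in ligature plus trauma against trauma (-2.60 ± 0.66, adjusted p = 0.0309), as was the sum of both genes (-2.35, adjusted p = 0.0452). Reads of the gene and of the pseudogene cannot be told apart in these counts.

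Ccr7, the receptor of both ligands, moved the other way from Ccl21a. It had 12.5 ± 7.31 CPM in ligature plus trauma and 20.2 ± 7.27 CPM in ligature, against 2.45 ± 1.49 CPM in trauma and 1.77 ± 0.546 CPM in control (SD, n = 4). It was called higher in ligature against control (log2 fold change 3.51 ± 0.52, adjusted p = 0.000832) and in ligature plus trauma against trauma (2.35 ± 0.49, adjusted p = 0.0121), where the lowest ligature plus trauma library (4.42 CPM) lay just under the highest trauma library (4.43 CPM). Ackr4, which scavenges CCL19 and CCL21, had 116 ± 25.5 CPM in ligature plus trauma and 131 ± 7.37 CPM in ligature, against 48.6 ± 15.0 CPM in trauma and 52.0 ± 8.90 CPM in control. It was called higher in ligature against control (1.33 ± 0.23, adjusted p = 0.00256) and in ligature plus trauma against trauma (1.25 ± 0.23, adjusted p = 0.00729).

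**Figure D4:**
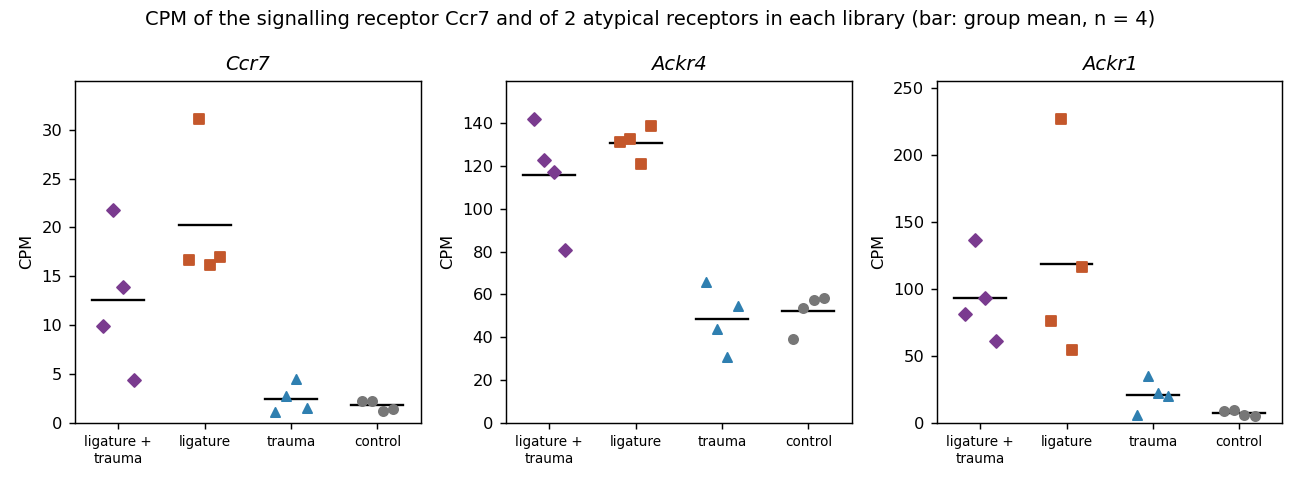
CPM of Ccr7, the signalling receptor of CCL19 and CCL21, of Ackr4, which scavenges both, and of Ackr1, which binds inflammatory chemokines on venules, in each library by group, with group means as bars (n = 4 each). Ackr4 is at 80.9 CPM or more in the 8 ligated libraries and at 65.6 CPM or less in trauma and control.

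Cxcl13, the B cell chemokine, had 10.5, 12.4, 4.22 and 2.72 CPM in ligature plus trauma, 10.8, 7.11, 6.60 and 14.3 CPM in ligature and 0.698, 13.7, 5.07 and 3.16 CPM in trauma, against 1.80, 0.940, 2.87 and 3.89 CPM in control. Ligature lay wholly above control, while the other groups overlapped control. Ligature against control gave a log2 fold change of 2.03 ± 0.71 and was not called (adjusted p = 0.0768), although 3 of 10 other ways of processing called it: DESeq2 (adjusted p = 0.0221), a fit of these 2 groups only (adjusted p = 0.0325) and limma-voom (adjusted p = 0.0488). It was 1.65 ± 0.70 in ligature plus trauma against control (adjusted p = 0.124), 1.25 ± 0.69 in trauma against control (adjusted p = 0.759) and 0.40 ± 0.68 in ligature plus trauma against trauma (adjusted p = 0.822). Its receptor gene Cxcr5 had 1.04 ± 0.475 CPM in ligature and 0.0966 ± 0.100 CPM in control and was not called (log2 fold change 3.41 ± 1.42, adjusted p = 0.134). The 8 B cell markers, of which 5 could be tested, summed to 1.83 to 5.48 CPM over all libraries. Their sum was 1.89 to 4.49 CPM in ligature and 2.31 to 4.45 CPM in control. None of the tested ones was called in ligature against control.

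Cxcl14, a chemokine of epithelium and fibroblasts, had 7.91, 23.8, 31.8 and 14.9 CPM in ligature plus trauma and 22.2, 17.8, 11.3 and 20.6 CPM in ligature. In trauma it had 6.50, 11.8, 6.10 and 3.43 CPM, against 20.6, 12.2, 12.2 and 10.3 CPM in control. The trauma libraries included the 3 lowest values of all. Ligature plus trauma against trauma gave a log2 fold change of 1.49 ± 0.42 at the very threshold (adjusted p = 0.04998), with ranges that overlapped. It lost its call under 7 of 10 other ways of processing, and when any of ligature plus trauma 2, 3 and 4 or trauma 1, 3 and 4 was left out (adjusted p up to 0.186). Without the 3 libraries shifted to short transcripts it was 0.70 (adjusted p = 0.514). Against control it was 0.51 ± 0.41 in ligature plus trauma (adjusted p = 0.431), 0.38 ± 0.41 in ligature (adjusted p = 0.598) and -0.99 ± 0.42 in trauma (adjusted p = 0.695). The interaction was 1.11 ± 0.59 and was not called. The genes most alike to Cxcl14 were Arf5 (r = 0.837) and Rab5c (r = 0.783), small GTPases of membrane traffic, and Pdlim7 (r = 0.780).

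Cx3cl1, fractalkine, was called in no comparison. It had 19.5, 22.5, 12.6 and 17.6 CPM in ligature plus trauma, 12.2, 8.20, 11.5 and 27.5 CPM in ligature and 42.4, 16.1, 9.94 and 24.9 CPM in trauma, against 67.4, 19.6, 10.5 and 16.2 CPM in control. Control 1 stood far above the other 3 control libraries, and all groups overlapped. The log2 fold change was -0.93 ± 0.55 in ligature against control (adjusted p = 0.288), -0.65 ± 0.55 in ligature plus trauma against control (adjusted p = 0.441), -0.28 ± 0.54 in trauma against control (adjusted p = 0.916) and -0.37 ± 0.54 in ligature plus trauma against trauma (adjusted p = 0.784). Without control 1 the value in ligature against control was -0.05. The transcripts of Adam10 and Adam17, the proteases that release CX3CL1 from the membrane, were not called in ligature against control, at -0.27 ± 0.34 (adjusted p = 0.660) and 0.26 ± 0.37 (adjusted p = 0.702).

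Cx3cr1, its receptor, had 2.46, 2.05, 2.05 and 1.35 CPM in ligature plus trauma, 3.56, 1.13, 2.59 and 1.22 CPM in ligature and 2.49, 3.24, 3.43 and 1.52 CPM in trauma, against 3.75, 4.63, 2.87 and 3.48 CPM in control. Ligature plus trauma lay wholly below control, and the other groups overlapped it. It was not called in ligature plus trauma against control (log2 fold change -0.90 ± 0.41, adjusted p = 0.150), in ligature against control (-0.79 ± 0.41, adjusted p = 0.225), in trauma against control (-0.46 ± 0.41, adjusted p = 0.815) or in ligature plus trauma against trauma (-0.43 ± 0.41, adjusted p = 0.629). Of the 13 monocyte and macrophage markers, 4 were called higher and 3 lower in ligature against control (5.88% and 4.78% of all genes). Their median sum was 1111 CPM in ligature and 769 CPM in control. Among them Mrc1, the mannose receptor of resident macrophages, was called lower in ligature against control (-1.72 ± 0.31, adjusted p = 0.00269). Adgre1, which encodes F4/80, was called lower too (-1.13 ± 0.34, adjusted p = 0.0466). Cd68, a lysosomal protein of macrophages and osteoclasts, was called higher (2.50 ± 0.33, adjusted p = 0.000421). The part of these cells in the level of Cx3cr1 was not tested.

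In ligature against control, Cxcr4 and Cxcl13 lay wholly above and Cxcl12 and Ccl21a wholly below, as did 9.97% and 9.15% of all genes. Likewise in ligature plus trauma against control, Cxcr4 and Ackr3 lay above and Cxcl12 and Cx3cr1 below, as did 10.8% and 10.4% of all genes. In ligature plus trauma against trauma, Cxcr4 lay above and Ccl21a below, as did 5.74% and 7.31% of all genes. In trauma against control none of the 9 lay apart (6.93% of all genes), and none in ligature plus trauma against ligature (1.44% of all genes).

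Trauma added no call among the 9 genes. In trauma against control edgeR called 0 of 9, with 4 at an unadjusted p under 0.05 (Cxcl12, Cxcr4, Ackr3 and Cxcl14), and DESeq2 called 0; edgeR called 0.00477% of all genes there, which is 1 gene. Adding trauma to the ligature (ligature plus trauma against ligature), edgeR called 0 of the 9 and 0% of all genes, with 1 of the 9 (Cxcr4) at an unadjusted p under 0.05, and DESeq2 called 0 of the 9. In the interaction edgeR likewise called 0 of the 9 and 0% of all genes, with 1 of the 9 (Cxcl12) at an unadjusted p under 0.05, and DESeq2 called 0 of the 9. Of all genes tested, 6.92% had an unadjusted p under 0.05 in edgeR in trauma against control. That share was 3.5% in ligature plus trauma against ligature and 4.93% in the interaction. Trauma against control and ligature against control share the control libraries.

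The other genes of these pathways were called in the 3 comparisons of a ligated with an unligated group, and none of them in trauma against control, in ligature plus trauma against ligature or in the interaction. Of 21 receptors, scavengers, proteases and signalling partners of the 9 genes, 5 were called higher and 1 lower in ligature against control, where 5.88% of all genes were called higher and 4.78% lower, with a median log2 fold change of 0.76. Of the same 21 genes, 4 were called higher and 1 lower in ligature plus trauma against trauma (2.21% and 3.27% of all genes), with a median of 0.58. Against control, ligature plus trauma had 7 called higher and 1 lower (6.83% and 5.62% of all genes), with a median of 0.63. Ackr1, the chemokine-binding receptor of venules and red cells, was called higher in ligature against control (log2 fold change 4.03 ± 0.54, adjusted p = 0.000465) and in ligature plus trauma against trauma (2.17 ± 0.50, adjusted p = 0.0197). Rgs16 was called higher in ligature against control (2.27 ± 0.60, adjusted p = 0.0249) and Rgs2, which like it shortens G protein signals, in ligature plus trauma against trauma (2.18 ± 0.43, adjusted p = 0.00972). Cd74, the invariant chain and receptor of the cytokine MIF, was called lower in ligature against control (-1.24 ± 0.22, adjusted p = 0.00250) and in ligature plus trauma against trauma (-1.31 ± 0.22, adjusted p = 0.00401). Dpp4, whose product trims CXCL12, was not called in ligature against control (0.25 ± 0.71, adjusted p = 0.859).

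Among 18 other homeostatic chemokines and receptors, 15 could be tested. In this list and the next 2, at most 1 gene was called in each direction per comparison, against the shares of all genes given above. Only Ccr3, the eotaxin receptor of eosinophils, was called higher (1.90 ± 0.28, adjusted p = 0.000901) and only Ccl21b lower in ligature against control, and the same pair was called in ligature plus trauma against trauma and against control. Of 16 genes of lymphoid stroma, 14 could be tested. Bst1, a surface enzyme of stromal and myeloid cells, was called higher in ligature against control (1.77 ± 0.33, adjusted p = 0.00324) and in ligature plus trauma against trauma (1.39 ± 0.32, adjusted p = 0.0205), and no other member was called in these comparisons. All 15 genes of the CXCL12-rich stromal niche of marrow were tested. Il34, the epithelial and neuronal ligand of the CSF1 receptor, was called lower in ligature against control (-1.73 ± 0.24, adjusted p = 0.000580) and in ligature plus trauma against trauma (-1.82 ± 0.24, adjusted p = 0.00160), and the 14 others were not called in either. Vcam1, the adhesion molecule that holds progenitor cells beside stroma, had 62.6 ± 15.7 CPM in ligature and 125 ± 14.2 CPM in control (log2 fold change -1.001 ± 0.369, adjusted p = 0.0924).

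**Figure D5:**
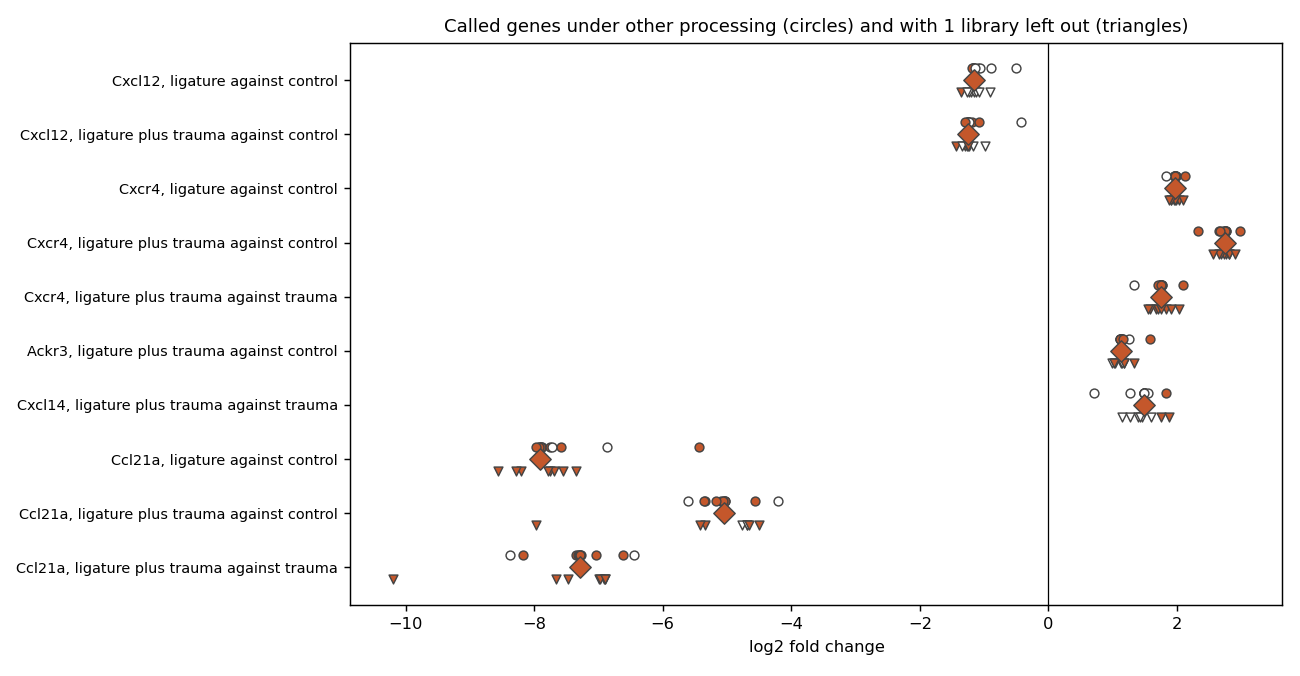
Log2 fold changes of the called genes as reported (diamonds), under other processing (circles) and with 1 library left out (triangles); filled symbols had an adjusted p under 0.05. No symbol changes side of 0; most open symbols belong to Cxcl12 in ligature against control and Cxcl14 in ligature plus trauma against trauma, and the 3 Cxcr4 results have 2 open circles between them.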

How the data were processed

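The deposited table holds whole-number counts of reads per gene, not normalised, for 55359 genes in 16 libraries of 4 groups. The submitters' processing notes list HISAT2 2.2.1, StringTie 2.1.7, Trimmomatic 0.39, DESeq2 1.32.0, FastQC 0.11.9 and the build GRCm39, without roles or order; per the labels, libraries were made from total RNA by poly(A) enrichment. Not given in the sources used here were the counting tool, annotation release and strand setting, so overlapping and near-identical genes cannot be told apart. Symbols and transcript lengths came from GENCODE M21 (GRCm38), which matched 52083 gene identifiers, and promoter windows from RefSeq (GRCm38.p6); no coordinates of the authors' build were used.

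Deposited counts were fitted with edgeR 4.0.16 (R 4.3.3): trimmed-mean scaling, its expression filter by group (minimum count 10), 1 quasi-likelihood fit of all 4 groups with 12 residual degrees of freedom and Benjamini-Hochberg adjustment over 20953 genes. Genes were called at an adjusted p under 0.05. The SE of a log2 fold change was its size over the root of the F statistic; the SD is over the 4 libraries of a group. Scripts were tested on simulated counts.

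The genes and lists were chosen with earlier results of these data known. All 9 genes are named; of each other list, the counts called, up to 5 genes with the lowest p, and Ccr7, Cxcr5, Ackr4, Dpp4, Adam10 and Adam17. Marker genes other than these, Krt4, Krt13, Krt14, Mmrn1, Prox1, Lyve1, Pdpn, Reln, Flt4, Mrc1, Adgre1, Cd68, Postn, Col1a1 and Ibsp, were chosen after their values were seen. So was the naming of the 8 neutrophil markers. Genes most alike were ranked by Pearson r of log2 CPM (prior count 2), without predicted genes, and are given for called genes; 1 of those ranked is not reported here. Alternatives were DESeq2 1.42.0, its size factors in edgeR, a filter of 50 counts in at least 4 libraries, no filter at all, a fit of each pair of groups by itself, a block for the replicate number, limma-voom (limma 3.58.1) with sample weights, the length trend removed (spline with 5 degrees of freedom), 13 libraries without those shifted to short transcripts, 13 libraries without muscle-rich ones (control 3, ligature 2 and ligature 3), and each library left out. The fits with copies summed were chosen after seeing the data.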

Additional observations from a re-analysis of the deposited data

Results flagged for a closer look

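In each group of 4, the gap between the highest or lowest library and its nearest neighbour was set against the group's range for each of the 9 genes, which makes 36 sets. Chance alone would single out about 1 in 20 such sets if the values were normally distributed, which was not tested for these CPM. In all, 4 were found.

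Ccl21a in ligature plus trauma 1 was 1.89 CPM, while the other 3 libraries of that group had 0.0197 to 0.149 CPM. The same library had the most Mmrn1 (0.690 CPM) and Krt4 (19.5 CPM) of its group. Ccl21a in ligature 1 was 0.158 CPM, which is 10 counts, while the other 3 had 0.0390 to 0.0552 CPM. Ccl19 in ligature plus trauma 4 was 0.200 CPM, while the other 3 had 1.21 to 1.38 CPM. Cx3cl1 in control 1 was 67.4 CPM, while the other 3 had 10.5 to 19.6 CPM.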

How the results depend on the processing

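Of 767 values of single genes under the alternatives, 703 kept direction and side of the threshold, 45 lost a call, 4 gained one and 15 turned direction, none of them from a called value. These values are not all results: Ccl19 in ligature plus trauma against control was left out. Ligature plus trauma against ligature was covered for Cxcr4, Ackr3 and Ccl21a only. The interaction was covered for Cxcl12, Cxcl14 and Ccl21a only. Members called in ligature plus trauma against trauma fell to 1 with limma-voom and to 0 without the short-transcript libraries; those in ligature plus trauma against control to 1 without the short-transcript libraries; those in ligature against control to 0 without the muscle-rich libraries. With 1 library left out, the count in ligature plus trauma against control was 1 to 4, at its lowest without ligature plus trauma 2; it was 2 without control 1 or ligature plus trauma 3. Fewer libraries entered these fits, other than limma-voom. The cause of the lost calls was not tested for any of them.

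Directions that turned belonged to uncalled log2 fold changes. In trauma against control, Cx3cl1 was 0.10 with limma-voom and -0.74 to 0.60 with 1 library left out. In ligature plus trauma against control, Cx3cl1 was 0.053 with the length trend removed and -0.93 to 0.23 with 1 library left out, and Cxcl14 was -0.28 without the short-transcript libraries. In ligature plus trauma against trauma, the length trend's removal gave 0.33 for Cxcl12, 0.086 for Cx3cl1 and 0.020 for Cx3cr1, and leaving out 1 library gave -0.40 to 0.11 for Cxcl12 and -0.62 to 0.089 for Cx3cl1. Ccl21a in ligature plus trauma against ligature was -0.038 to 3.52 with 1 library left out. The Ccl21a interaction was -0.59 with the replicate block, -1.51 with limma-voom, -1.18 with copies summed and -2.27 to 1.28 with 1 library left out. The cause was not tested.

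Same-numbered libraries deviated from their group means with correlations of -0.157 to 0.215. Between control and trauma the mean was 0.060 for the same number and -0.020 for other numbers. Between ligature and trauma it was -0.037 and 0.013. No pairing by number was evident from these values, which cannot exclude one. With the replicate block, members called were 3 in ligature against control, 4 in ligature plus trauma against control and 2 in ligature plus trauma against trauma, where Cxcl14 lost its call (adjusted p = 0.0635). Over all genes, calls in ligature against control were 2234, and 614 (without muscle-rich libraries) to 3859 (DESeq2) elsewhere. They were 2609 (743 to 4470) in ligature plus trauma against control, 1149 (403 to 2165) in ligature plus trauma against trauma, and with DESeq2 127 in trauma against control, 45 in ligature plus trauma against ligature and 68 in the interaction. The fit of compared groups only gave no interaction. Counts of Ccl21a in ligated libraries, 1 to 137, limit the size of its change.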
